A study of Mus musculus with 45 samples.

Results

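The hepatic response to 0.1 μg/kg TCDD was compared with the sesame oil vehicle across all genes, in 5 livers per group out of 45 livers in the series. These 10 livers were chosen by their labelled dose alone. All were livers of female C57BL/6 mice, and each liver was sequenced as its own library. TCDD (2,3,7,8-tetrachlorodibenzo-p-dioxin) or vehicle was gavaged every 4 days for 28 days, starting on postnatal day 28 according to the methods of the study. The GEO labels call the mice ovariectomized and also use the word daily, whereas the methods mention neither. The remaining 35 livers had received 30, 10, 3, 1, 0.3, 0.03 or 0.01 μg/kg, and of these the 0.03 and 0.3 μg/kg groups were compared here as the neighbouring doses.

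TCDD is a persistent ligand of the aryl hydrocarbon receptor (AhR), a transcription factor held in the cytosol by Hsp90 and its partners. Ligand-bound AhR enters the nucleus, pairs with ARNT and binds dioxin response elements, whose core is the bases GCGTG. The resulting AhR gene battery contains cytochrome P450 enzymes of the Cyp1 family, conjugating enzymes such as the Ugt1a glucuronosyltransferases, Nqo1, and the feedback repressors Ahrr and Tiparp. In hepatocytes, Cyp1a2 is present without any inducer, while Cyp1a1 is nearly silent until AhR is activated.

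Only 4 genes passed the test at this dose, and all 4 were higher: Cyp1a1, Cyp1a2, Slc46a3 and Htatip2. Their promoters are shown to present the genes that carried the response, as the bases ahead of the RefSeq transcript start on build GRCm38.p6, 5′ to 3′ on the strand of the gene. Capitals mark GCGTG on either strand, which reads CACGC on the other strand.
Cyp1a1, chr9:57697363-57697612, plus strand: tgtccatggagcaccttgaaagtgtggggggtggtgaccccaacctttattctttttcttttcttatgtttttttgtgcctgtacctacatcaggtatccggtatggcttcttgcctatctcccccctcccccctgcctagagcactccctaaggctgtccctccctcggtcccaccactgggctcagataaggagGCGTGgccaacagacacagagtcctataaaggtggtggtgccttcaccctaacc
Cyp1a2, chr9:57683704-57683905, minus strand: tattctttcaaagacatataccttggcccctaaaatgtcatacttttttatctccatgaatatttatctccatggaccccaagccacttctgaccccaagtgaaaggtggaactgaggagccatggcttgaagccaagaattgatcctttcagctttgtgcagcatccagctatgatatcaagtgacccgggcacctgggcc
Htatip2, chr7:49758856-49759105, plus strand: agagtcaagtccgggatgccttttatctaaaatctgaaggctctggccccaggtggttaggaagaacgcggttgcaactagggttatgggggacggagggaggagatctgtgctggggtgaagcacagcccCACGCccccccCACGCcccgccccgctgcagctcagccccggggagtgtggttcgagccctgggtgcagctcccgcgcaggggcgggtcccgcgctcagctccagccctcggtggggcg
Slc46a3, chr5:147894816-147895065, minus strand: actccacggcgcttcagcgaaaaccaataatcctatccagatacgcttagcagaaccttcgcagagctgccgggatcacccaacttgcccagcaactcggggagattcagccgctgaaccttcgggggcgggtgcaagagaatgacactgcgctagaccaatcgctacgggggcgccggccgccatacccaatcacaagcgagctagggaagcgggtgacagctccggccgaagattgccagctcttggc
Within the 250 bases ahead of its start, Cyp1a1 held 1 GCGTG, 54 to 50 bases upstream, and Htatip2 held 2, both on the other strand, at 119 to 115 and 108 to 104 bases upstream. No GCGTG was present in this window of Cyp1a2 or Slc46a3. For Cyp1a2 the 48 bases next to the start were searched but not printed, because the later GENCODE annotation places them in an exon. A second RefSeq start of Htatip2, with no GCGTG in its window, lies inside the gene and is not printed. The printed Cyp1a1 window also lies inside the gene as GENCODE annotates it, with its RefSeq start 9685 bases from the GENCODE start. Of 32851 promoters of the same length, 28.2% held at least 1 GCGTG and 8.63% held 2 or more. The longer form TNGCGTG, which includes GCGTG, was in 4.10% of all promoters and in none of these windows. The match describes the letters of a short window, and AhR enhancers of the Cyp1a genes are known to lie farther upstream.

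Reads on genes ranged from 14619385 to 20624724 in vehicle livers and from 12121564 to 56509899 at 0.1 μg/kg. Hepatocyte markers, 10 genes including Alb and Apoa1, summed to 117844 to 159724 CPM (reads of a gene scaled to the library size) in the 10 livers, so the tissue label matched the data. Pancreas markers summed to at most 0.924 CPM and adipose markers to at most 0.152 CPM. In the measures given next, a set of 3 livers stood apart at 0.1 μg/kg. Mouse 5 was the deepest library and had 23875 CPM of acute phase transcripts against 10163 to 12669.6 CPM in the other 9 livers. Mouse 3 had 15.8 CPM of skeletal muscle markers against 0.431 to 1.39 CPM elsewhere, and 19.6 CPM of lymphocyte markers against 4.00 to 9.53 CPM. Mouse 4 had 17.1% of uniquely aligned reads outside annotated genes against 10.8% to 12.8%. Livers at 0.1 μg/kg were also less alike, with a mean Pearson correlation to their own group of 0.973 to 0.976 against 0.984 to 0.986 for vehicle livers (log2 CPM across 13356 genes). Each dosed liver correlated more closely with the vehicle livers (means of 0.976 to 0.982) than with its own group. Leaving out dosed mouse 3, 4 or 5 kept all 4 calls. In whole liver, a change in the share of a cell type and a change in RNA per cell cannot be told apart.

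**Figure D1:**
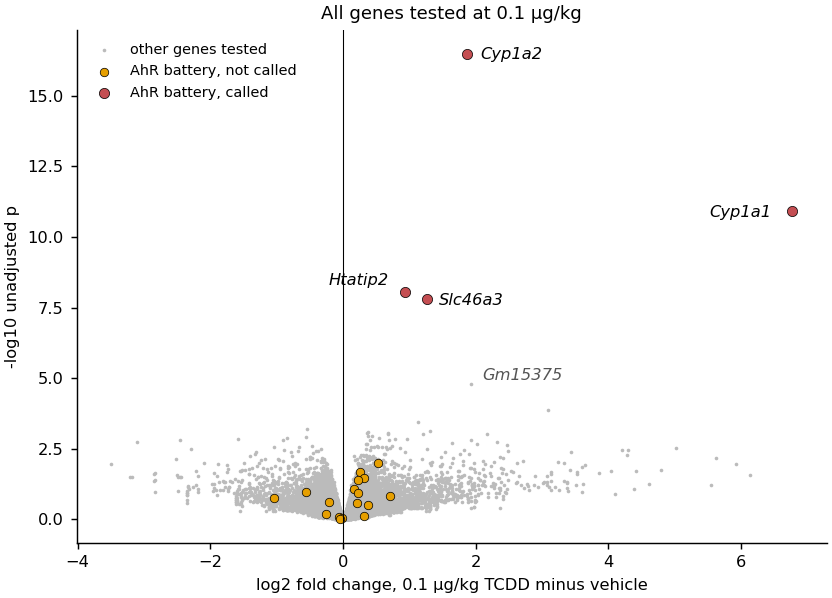
Each point is 1 of 17464 genes, placed by the log2 fold change at 0.1 μg/kg against vehicle (x axis) and the -log10 of the unadjusted p of edgeR's quasi-likelihood test (y axis). Red points are the 4 called AhR battery genes, and orange points are the battery members that did not pass the adjusted threshold (Aldh3a1, with no reads in vehicle, is left out of the orange). Gm15375, the next gene in order of p, lies well below the called genes on this axis.

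Of 17464 genes tested, 4 (0.0229%) differed at an adjusted p under 0.05 (edgeR's quasi-likelihood test, Benjamini-Hochberg adjustment), and none was lower. Cyp1a1, Cyp1a2 and Slc46a3 had in addition a |fold change| of at least 2, which makes 3 DEGs (0.0172%). At an unadjusted p under 0.05 there were 594 higher (3.40%) and 306 lower genes (1.75%), 5.15% of all genes in both directions. This split moved with the scaling: 594 higher genes stood against 306 lower genes with TMM scaling, 558 against 343 with DESeq2 size factors and 740 against 215 when library size alone was used. The median log2 fold change of all genes was 0.03, with quartiles of -0.12 and 0.18. Among genes with a mean of at least 10 reads, the groups did not overlap for 34 of 13356 in the upward direction (0.255%) and for 29 in the downward direction (0.217%).

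The count of 4 depended on the adjustment. Adjusting over all genes and all 8 doses together, where the high doses contribute many small p-values, gave 46 genes (36 higher, 10 lower), which included all 4. Under the other alternatives the count lay between 4 and 6. The size of change that could be present unseen is given by the 95% intervals: for 12089 of 13356 genes (90.5%) with a mean of at least 10 reads, the interval of the log2 fold change stayed within a 2-fold change in either direction. For the other 1267 genes a 2-fold change in some direction lay inside the interval or was exceeded.

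Cyp1a1 (ENSMUSG00000032315, chr9:57687928-57703824 of GRCm38, plus strand), which oxidizes polycyclic aromatic hydrocarbons, showed the largest change of the called genes. Its levels in vehicle livers were 2.90, 1.34, 5.49, 16.6 and 11.1 CPM. At 0.1 μg/kg they were 745, 1325, 743, 714 and 612 CPM. The lowest dosed liver was 36.8-fold above the highest vehicle liver, and the vehicle livers themselves spread over a 12.5-fold range, with mice 4 and 5 highest. The group means were 7.50 ± 6.32 CPM (SD, n = 5) and 828 ± 283 CPM (SD, n = 5), a 110-fold difference (log2 fold change 6.78, SE 0.73, adjusted p = 1.09e-07, edgeR). Mouse 2 was higher than the other dosed livers, whereas the remaining 4 lay within 612 to 745 CPM.

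Cyp1a2 (ENSMUSG00000032310, chr9:57676937-57683703, minus strand) lies next to Cyp1a1 and is transcribed away from it, with 13958 bases between the RefSeq starts of both genes. It hydroxylates caffeine, arylamines and estrogens and is the hepatic protein that binds TCDD itself. Vehicle livers had 1040, 942, 1094, 1221 and 1228 CPM, and livers at 0.1 μg/kg had 3865, 4601, 4509, 3501 and 3800 CPM. Cyp1a2 was thus expressed in every vehicle liver, and each dosed liver exceeded the highest vehicle liver by at least 2.85-fold. The mean rose 3.67-fold, from 1105 ± 122 to 4055 ± 478 CPM (SD, n = 5 each), with a log2 fold change of 1.88 (SE 0.14, adjusted p = 5.65e-13, edgeR), the smallest p of all genes. Reads that aligned equally well to both Cyp1a paralogs were not counted by the authors.

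Slc46a3 (ENSMUSG00000029650, chr5:147878437-147894815, minus strand) encodes a solute carrier of the lysosomal membrane. Its vehicle levels were 43.7, 71.7, 76.8, 76.6 and 72.5 CPM, and its levels at 0.1 μg/kg were 181, 156, 152, 160 and 169 CPM. The dosed livers covered only a 1.19-fold range. Vehicle mouse 1 was far below the other vehicle livers, and without it the log2 fold change was 1.13, the lowest value when single mice were left out. With all mice it was 1.26 (SE 0.18, 2.39-fold, adjusted p = 7.17e-05, edgeR).

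Htatip2 (ENSMUSG00000039745, chr7:49759115-49773975, plus strand), also known as Tip30, encodes a short-chain dehydrogenase-like protein described as a tumour suppressor. Vehicle livers had 50.7, 46.6, 37.2, 44.4 and 50.3 CPM, and dosed livers had 82.6, 120, 92.7, 64.2 and 77.1 CPM. The groups did not overlap, but the gap was small, with the lowest dosed liver 1.27-fold above the highest vehicle liver. The mean rose 1.91-fold (log2 fold change 0.93, SE 0.13, adjusted p = 5.18e-05, edgeR), below the 2-fold criterion. When only the 10 livers of these groups were fitted, Htatip2 had an adjusted p of 0.0811 in edgeR with nearly the same log2 fold change, 0.92.

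For each of these 4 genes the exact permutation test of 5 livers against 5 gave p = 0.007937, the smallest value 252 arrangements can give. All named genes whose groups did not overlap had this same value, also those not called, so it does not set the 4 genes apart. The dosed liver with the highest Cyp1a1, mouse 2, also had the highest Cyp1a2 and Htatip2, but not the highest Slc46a3.

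**Figure D2:**
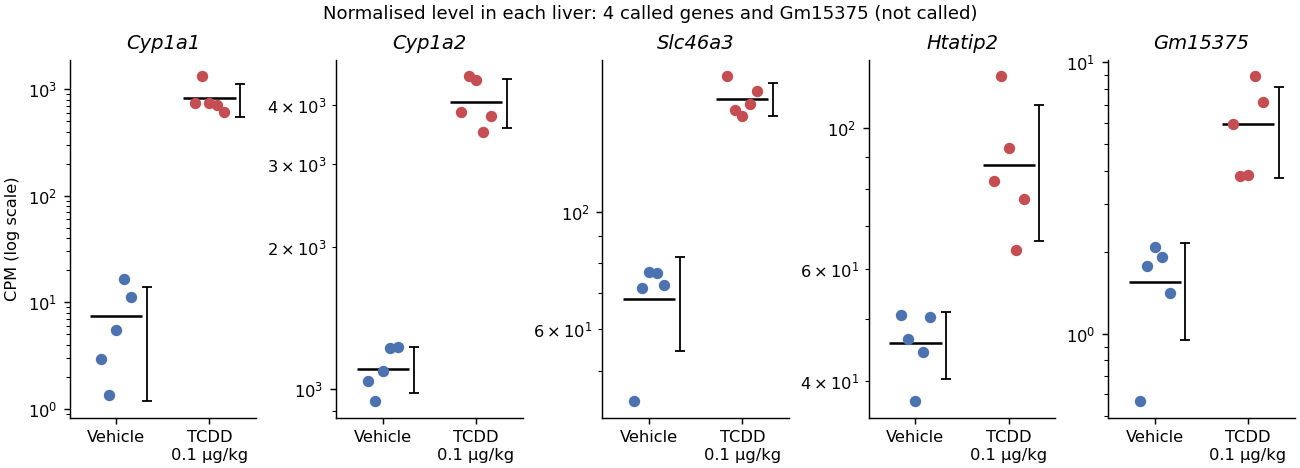
Levels in CPM (log scale, y axis) of the 4 called genes and of Gm15375 in each vehicle (blue) and 0.1 μg/kg (red) liver; the line is the mean and the bar 1 SD of 5 livers. In all 5 panels the lowest red point lies above the highest blue point, and the gap is largest for Cyp1a1 (612 against 16.6 CPM).

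Gm15375 (ENSMUSG00000083478) missed the threshold by little, with a log2 fold change of 1.93 (SE 0.39) and an adjusted p of 0.0548 in edgeR. It is annotated as an unprocessed pseudogene at chr1:88025211-88026059 on the plus strand, 29329 bases ahead of Ugt1a10, the first gene of the Ugt1a cluster. Vehicle livers had 8, 28, 34, 31 and 28 reads (0.566 to 2.10 CPM), and dosed livers had 67, 62, 66, 185 and 376 reads (3.80 to 8.89 CPM). The groups did not overlap. It passed with DESeq2 (adjusted p = 0.00155), with library size scaling (0.0309), with both other filters on low counts (0.0492 and 0.0374) and without mouse 2 or mouse 3 of the dosed group, and its adjusted p reached 0.425 without dosed mouse 4. Reads of near-identical copies could be split or lost, so its level is uncertain.

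The AhR battery of 22 genes held all 4 called genes. Slc46a3 and Htatip2 were placed in it with results of these data known, and the rest of the list was fixed with those results known as well. Of the other 20 members 2 were called. At an unadjusted p under 0.05, 6 of those 20 (30.0%) were higher and none was lower, beside 3.40% of all genes that were higher. The median log2 fold change of the 22 was 0.24, or 0.22 with Aldh3a1 at its lower bound, beside 0.03 for all genes. Besides Cyp1a1 and Cyp1a2, the members that met only the unadjusted threshold were Ugt1a9, Ugt1a6a, Ugdh, which makes the UDP-glucuronic acid these enzymes use, and Xdh, an enzyme of purine breakdown. Their log2 fold changes were 0.52, 0.22, 0.32 and 0.25, each with an adjusted p of 0.893 (edgeR), and the groups overlapped for all 4. Without dosed mouse 4 the values of Ugt1a6a and Xdh were 0.11 and 0.12. Ugt1a9 had 88.5, 107, 76.9, 85.2 and 65.0 CPM in vehicle livers and 147, 159, 81.3, 136 and 84.8 CPM at 0.1 μg/kg, so that 3 of 5 dosed livers were above every vehicle liver. The Ugt1a genes share their last exons, and reads in those exons could not be assigned to 1 gene.

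Several battery members that are widely used as AhR markers did not pass at this dose. The repressor Tiparp had a mean of 13.7 ± 2.36 CPM in vehicle livers and 11.9 ± 3.18 CPM at 0.1 μg/kg (SD, n = 5 each). Its 95% interval of the log2 fold change, -0.21, ran from -0.56 to 0.15. The quinone reductase Nqo1 had a log2 fold change of 0.21 (interval -0.16 to 0.58), which left out a 2-fold change as well. For the repressor Ahrr the vehicle livers held 2, 2, 1, 1 and 6 reads and the dosed livers 0, 2, 4, 4 and 12 reads. This depth left an interval of -1.49 to 2.11 around the log2 fold change of 0.31. Cyp1b1, a P450 of the same family that is low in normal liver, had 10 to 49 reads per vehicle liver and 8 to 26 reads per dosed liver (log2 fold change -1.03, interval -2.54 to 0.47). Vehicle mice 4 and 5 had 2.48 CPM each, whereas the other vehicle livers had 0.616 to 0.849 CPM, within the dosed range of 0.467 to 1.10 CPM. Mice 4 and 5 were also the highest vehicle livers for Cyp1a1, Cyp1a2 and Nptx1, and the cause was not tested. The aldehyde dehydrogenase Aldh3a1 had no reads in any vehicle liver and 4 reads over the 5 dosed livers, and a difference was not detectable at this depth. In all, the interval stayed within a 2-fold change for 10 of the 18 battery members that were not called.

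**Figure D3:**
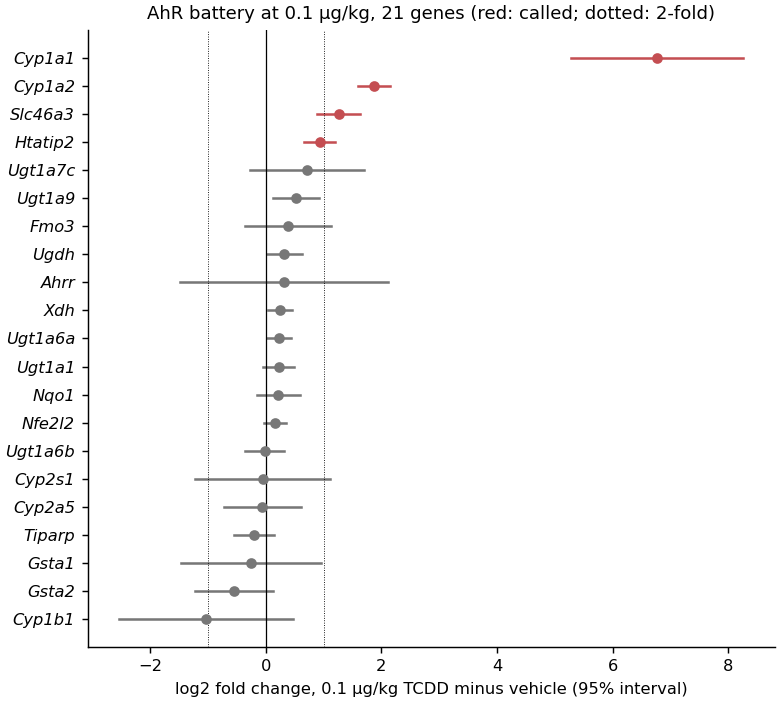
Log2 fold change at 0.1 μg/kg against vehicle (x axis) of 21 AhR battery genes with 95% intervals (bars). The 4 called genes are red, dotted lines mark a 2-fold change, and Aldh3a1 is left out because it had no reads in vehicle livers.

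The receptor and its partners were not called. Of 10 genes of the AhR complex 9 were tested, none had an unadjusted p under 0.05 (edgeR's quasi-likelihood test; 0 were called by DESeq2 as well), and their log2 fold changes ranged from -0.05 to 0.35 with a median of 0.07. Ahr itself had 63.7, 60.1, 97.4, 76.5 and 70.4 CPM in vehicle livers and 101, 68.1, 55.3, 54.8 and 95.2 CPM in dosed livers. These ranges overlapped almost completely (log2 fold change 0.02, SE 0.21, interval -0.40 to 0.44).

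Genes that change most at 30 μg/kg, a list taken from earlier results of these data, were mostly not called at 0.1 μg/kg. Of its 10 members only Cyp1a1 was called, beside 0.0229% of all genes. Nptx1, a neuronal pentraxin with little expression in normal liver, had 1, 0, 2, 12 and 6 reads in vehicle livers and 8, 33, 48, 13 and 36 reads in dosed livers. Vehicle mouse 4 overlapped with the dosed group, and the log2 fold change of 2.31 (SE 0.69) had an unadjusted p of 0.00176 and an adjusted p of 0.893 in edgeR. Hmx1 had no reads in any of the 10 livers, and Col9a2 had 3 reads over the vehicle livers and 1 read over the dosed livers. Hao1, the glycolate oxidase of the liver peroxisome, had 242 to 316 CPM in vehicle and 236 to 296 CPM in dosed livers. The uptake transporter Slco1a1 varied widely in both groups, from 7.43 to 188 CPM in vehicle and from 53.5 to 329 CPM in dosed livers. Slc13a2, Sult3a1 and Sult3a2 had log2 fold changes of -0.44, 0.19 and 0.51, none with an unadjusted p under 0.05.

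A further 15 genes besides Gm15375 had the smallest p-values among genes whose groups did not overlap, and all of them had an adjusted p of 0.893. Together with Gm15375 these 16 genes comprised 9 higher and 7 lower genes, and the background of non-overlapping genes was 0.472% in both directions. With no effect of dose, full separation in either direction comes from a fraction of 0.007937 of the 252 arrangements of 10 livers. The observed share was below that fraction, so groups that do not overlap do not by themselves mark a changed gene. Slc10a2, the sodium-dependent bile acid transporter best known from the ileum, had 1.98, 2.80, 2.77, 3.16 and 2.07 CPM in vehicle livers and 5.42, 5.46, 5.90, 4.95 and 7.42 CPM in dosed livers. Its log2 fold change was 1.20 (SE 0.34), and with only these 10 livers in the fit its adjusted p was 0.0417 (edgeR). Slc10a2 was already above every vehicle liver at 0.01 μg/kg, with 5.48 to 7.38 CPM. At 0.03 μg/kg it spread from 0.786 to 6.92 CPM. Aspm, a protein of the mitotic spindle, had a mean of 0.127 CPM in vehicle and 0.680 CPM in dosed livers. Prpf4b, a kinase of the spliceosome, and Phip both had their highest value in dosed mouse 4 (144 and 45.2 CPM), the library with 17.1% of reads outside genes. Without that mouse their log2 fold changes were the lowest of the leave-one-out values, 0.23 and 0.21 against 0.44 and 0.38 with all mice. Both genes were also above every vehicle liver at 0.03 μg/kg. Prpf4b had 81.0 to 106 CPM there against at most 78.4 CPM in vehicle, and Phip 30.3 to 34.2 against at most 25.8 CPM. The other higher genes were Camkk2, Gm340, Igsf10 and 4930518I15Rik, with log2 fold changes of 0.46 to 0.69. Camkk2 was also above every vehicle liver at 0.01 μg/kg (11.9 to 17.0 against 9.43 to 10.6 CPM).

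On the lower side, Sult2a7, a hydroxysteroid sulfotransferase, had the largest difference, with 47.8, 21.2, 21.8, 44.1 and 43.3 CPM in vehicle livers and 20.3, 21.2, 9.75, 8.94 and 7.87 CPM at 0.1 μg/kg. Dosed mouse 2 and vehicle mouse 2 nearly met, and the log2 fold change of -1.41 had an SE of 0.48. Pctp, the phosphatidylcholine transfer protein, had 159 to 191 CPM in vehicle and 110 to 155 CPM in dosed livers (log2 fold change -0.38, SE 0.12). Faap100, Rab3a, Chrnb2, Nxn and Ccdc68 had log2 fold changes between -0.78 and -0.47. Chrnb2 was also below every vehicle liver at 0.01 μg/kg (1.13 to 2.09 against 2.67 to 3.03 CPM). Apart from Slc10a2, Camkk2 and Chrnb2, the genes of this set overlapped between 0.01 μg/kg and vehicle. At 0.03 μg/kg, in contrast, Gm15375, Gm340, Phip, Prpf4b, Aspm and Camkk2 were above every vehicle liver. Faap100 (3.73 to 4.50 against 4.81 to 7.13 CPM) and Chrnb2 were below every vehicle liver at 0.03 μg/kg. These differences were thus not particular to 0.1 μg/kg, and all rest on the same vehicle livers. Exons of Rab3a, Chrnb2, Prpf4b, Igsf10 and Ccdc68 overlap genes on the other strand, and reads of both strands cannot be told apart in these libraries.

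None of the called genes was in the lists of other liver pathways. Among all genes tested 0.0229% were called and 5.15% had an unadjusted p under 0.05. Positive log2 fold changes were found for 9553 of 17464 genes and negative ones for 7869. The counts of each list stand beside these shares. Of the 18 NRF2 antioxidant genes, Txnrd1 was higher (log2 fold change 0.21) and Gstm2 and Me1 were lower (-0.31 and -0.50) at an unadjusted p under 0.05, with a median of 0.03 over the list. Among 18 genes of cholesterol synthesis, 16 had a negative log2 fold change, with a median of -0.31, but only Fdft1, squalene synthase, met the unadjusted threshold (-0.38, SE 0.18). The summed levels of this list overlapped, with 3214 to 5363 CPM in vehicle and 3215 to 4433 CPM in dosed livers. Of 30 genes of lipid uptake, storage and synthesis, 23 had a negative log2 fold change (median -0.13). Acly, which supplies acetyl-CoA for lipogenesis, spread from 288 to 881 CPM in vehicle and from 130 to 424 CPM in dosed livers and met the unadjusted threshold, as did Fabp4. Without vehicle mouse 4 the log2 fold change of Acly was -0.31 instead of -0.61, and without vehicle mouse 1 that of Fabp4 was -0.24 instead of -0.44 and that of Me1 was -0.31. The summed glucose and fasting list of 16 genes had 5983 to 8864 CPM in vehicle livers. Dosed mice 2, 3 and 4 lay below that range, with 4817, 3700 and 4600 CPM. Dosed mice 1 and 5 lay above it, with 9258 and 10349 CPM, and the cause of this split was not tested. In this list, Sds, the serine dehydratase of gluconeogenesis, and the coactivator Ppargc1a were lower at an unadjusted p under 0.05 (log2 fold changes of -0.67 and -0.50). Cyp7b1 was the only one of 18 bile acid genes to meet it (0.36), and Cyp2d9 (0.59) and Cyp2b9 (-0.25) were the only ones of 29 other P450 genes. In the cell cycle list Pcna (-0.31) and E2f8 (0.86) met it, and Gadd45b (1.16) did so among 13 p53 and growth arrest genes. The log2 fold change of E2f8 was 0.29 without dosed mouse 5, and that of Gadd45b was 0.56 without dosed mouse 1, which had 6.22 CPM against 0.576 to 2.90 CPM in the other dosed livers. None of 20 circadian genes, 18 interferon-stimulated genes or 6 reference genes did so. Summed circadian genes were nevertheless lowest in dosed mouse 2, at 752 CPM. The other dosed livers had 1258 to 1736 CPM and the vehicle livers 1320 to 1670 CPM. All genes named with these lists had an adjusted p of 0.893 in edgeR.

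Acute phase and muscle genes followed single livers. Of 16 acute phase genes 5 were higher at an unadjusted p under 0.05, namely Saa1, Saa2, Serpina3n, Fgb and Steap4 (31.2%, beside 3.40% of all genes that were higher), and the first 4 of these were highest in dosed mouse 5. Saa1, serum amyloid A, had 13.6 to 26.2 CPM in vehicle livers, 16.4 to 25.8 CPM in dosed mice 1 to 4 and 348 CPM in dosed mouse 5. Without that mouse the log2 fold change of Saa1 fell from 2.17 to 0.07 and that of Serpina3n from 0.57 to -0.15. Likewise 4 of 6 muscle markers (66.7%, beside the same 3.40% of all genes) were higher at the unadjusted threshold, with Acta1 at 77 reads in dosed mouse 3 and at most 3 reads in any other of the 10 livers. Without dosed mouse 3 the log2 fold change of Acta1 fell from 5.62 to 1.03. Marker lists of other liver cell types had no called member. All 8 Kupffer cell markers had positive log2 fold changes (0.15 to 0.39) with an unadjusted p above 0.05, and their summed level spread from 155 to 252 CPM in vehicle and from 109 to 337 CPM in dosed livers. Cholangiocyte markers summed to 52.4 to 77.9 CPM in vehicle and 44.5 to 67.4 CPM in dosed livers, and Spp1, osteopontin, met the unadjusted threshold there (-0.28). Stellate, endothelial, lymphocyte and erythroid lists had medians of 0.06, -0.08, 0.25 and -0.18 on the log2 scale and no member at the unadjusted threshold. The part of these cell types in the results was not tested.

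**Figure D4:**
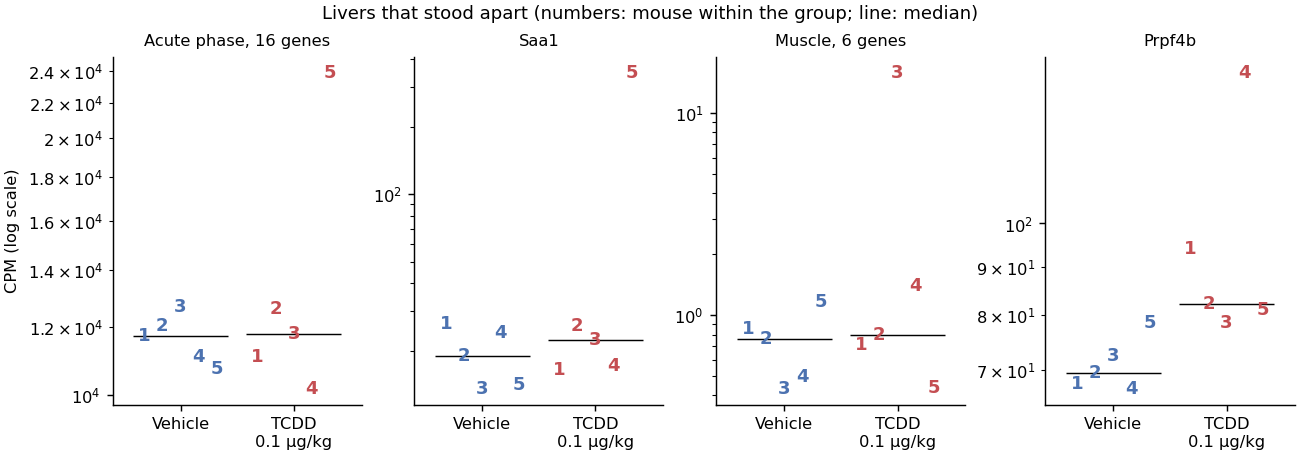
CPM (log scale, y axis) in each of the 10 livers, drawn as the number of the mouse within its group, for summed acute phase genes, Saa1, summed muscle markers and Prpf4b; the line is the group median. Dosed mouse 5 is highest for acute phase genes and Saa1 (348 CPM), dosed mouse 3 for muscle markers (15.8 CPM) and dosed mouse 4 for Prpf4b (144 CPM).

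The step into 0.1 μg/kg was tested against 0.03 μg/kg, the next lower dose. Here 2 of 17464 genes were called (0.0115%), Cyp1a1 and Cyp1a2, and both were higher. Cyp1a1 had 25.3 to 71.8 CPM at 0.03 μg/kg, below every liver at 0.1 μg/kg, a 17.3-fold difference in the fit (log2 4.11, SE 0.64, adjusted p = 0.0018, edgeR). Cyp1a2 had 2236 to 2666 CPM at 0.03 μg/kg against 3501 to 4601 CPM (1.71-fold, SE 0.13 on the log2 scale, adjusted p = 0.00575, edgeR). This call was lost with only the 10 livers of both groups in the fit, where the difference was 1.70-fold (adjusted p = 0.115, edgeR). Slc46a3 and Htatip2 did not pass this test, with log2 differences of 0.78 (SE 0.18) and 0.42 (SE 0.13) and adjusted p-values of 0.180 and 0.716. An unadjusted p under 0.05 was found for 980 genes (5.61%).

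From 0.1 to 0.3 μg/kg 8 genes were called (0.0458%), all higher at 0.3 μg/kg, and 1007 genes (5.77%) had an unadjusted p under 0.05. DESeq2 called 20 genes for this step, 19 higher and 1 lower, which included all 8. With only the 10 livers of both groups in the fit 6 genes were called, and Tuba8, Htatip2, Tcf4 and Insl6 lost their calls (adjusted p = 0.0834, 0.260, 0.260 and 0.908, edgeR). Cyp1a2 rose a further 1.99-fold, to 8070 ± 1327 CPM, Htatip2 1.74-fold, to 152 ± 13.7 CPM, and Slc46a3 1.83-fold, to 299 ± 47.6 CPM (SD, n = 5). Cyp1a1 went from 828 to 3415 CPM, but its log2 difference of 2.04 (SE 0.58) had an adjusted p of 0.444 in this fit and was called with only these 10 livers in the fit. The remaining 5 called genes were near vehicle level at 0.1 μg/kg or not yet called there. Cyfip2, a subunit of the WAVE actin regulator, had 0.800 to 2.57 CPM at 0.1 μg/kg and 7.80 to 16.5 CPM at 0.3 μg/kg (6.49-fold, adjusted p = 1.96e-06, edgeR). Nptx1 rose 8.29-fold, to 10.7 CPM, the α-tubulin Tuba8 3.34-fold and the insulin-like peptide Insl6 2.78-fold, and the transcription factor Tcf4 rose to a mean of 38.8 CPM. Among these, the comparison of 0.1 μg/kg with vehicle had given unadjusted p-values of 0.474 for Cyfip2, 0.00036 for Tuba8, 0.00712 for Insl6 and 0.0368 for Tcf4. The call of Slc46a3 was lost in 8 and that of Insl6 in 7 of the 10 fits that left out 1 mouse. Both steps and the comparison with vehicle share the 0.1 μg/kg livers.

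The levels over the whole dose range place 0.1 μg/kg for these genes. Mean Cyp1a1 was 7.50, 15.7, 47.9, 828, 3415, 4592, 5851, 6654 and 7627 CPM from vehicle to 30 μg/kg. The mean of 15.7 CPM at 0.01 μg/kg rested on mouse 5 of that group, with 69.7 CPM against 1.18 to 4.54 CPM in the other 4 livers, and without it the mean was 2.24 CPM, below the vehicle mean. Mean Slc46a3 was 68.3, 76.3, 95.2, 164, 299, 315, 315, 291 and 298 CPM over the same doses, with nearly level means from 0.3 μg/kg. Against vehicle, Cyp1a2 was also called at 0.03 μg/kg (log2 fold change 1.11, adjusted p = 3.37e-06, edgeR), whereas Cyp1a1 was not (2.66, adjusted p = 0.0828). Every liver at 0.03 μg/kg nevertheless had more Cyp1a1 (25.3 to 71.8 CPM) than the highest vehicle liver (16.6 CPM). The missed call is therefore no sign that Cyp1a1 was unchanged at that dose. Gm15375 had its highest mean, 10.9 CPM, at 1 μg/kg and 2.80 CPM at 30 μg/kg. Tiparp had a mean of 16.2 CPM at 1 μg/kg and 43.7 CPM at 3 μg/kg, and Ahrr had 0.885 CPM at 0.3 μg/kg and 12.7 CPM at 1 μg/kg. All doses were compared with the same 5 vehicle livers.

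**Figure D5:**
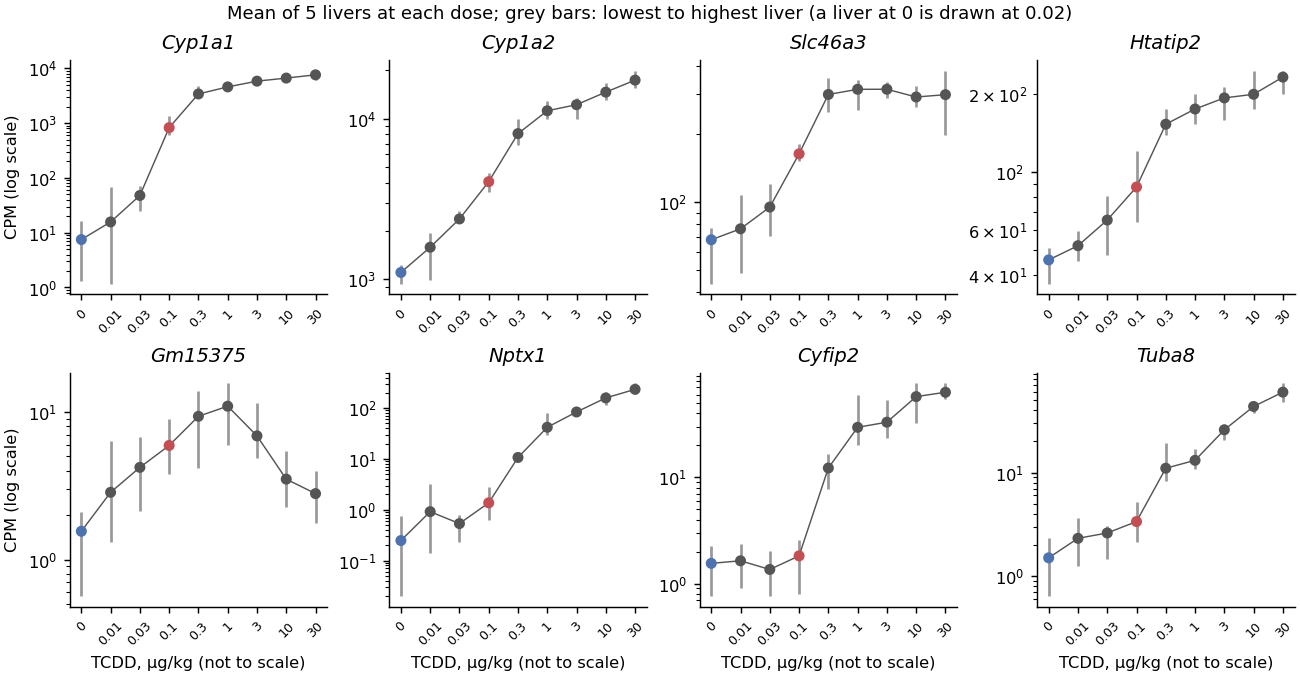
Mean CPM of 5 livers (log scale, y axis) at each dose (x axis, doses evenly spaced and not to scale) for the 4 called genes, Gm15375 and 3 genes called between 0.1 and 0.3 μg/kg; grey bars span the lowest to the highest liver, blue is vehicle and red 0.1 μg/kg. At the red point Cyp1a1 (828 CPM) lies far above vehicle, while Cyfip2 (1.82 CPM) lies close to its vehicle mean.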

How the data were processed

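Total liver RNA of 45 mice was sequenced as unstranded 50-base single-end reads, with random samples pooled on lanes that the labels do not give. The authors trimmed the reads, aligned them to GRCm38 with Bowtie and TopHat 1.4.1 and counted uniquely aligned reads on Ensembl genes with HTSeq 0.6.1 (versions per the labels' processing notes and the methods). The deposited values are raw read counts per gene for 39179 genes, not normalized. Groups came from the dose labels, and the study calls the 5 livers of a group independent biological replicates. Genes with more than 4 reads in any of the 45 samples (17464) were tested with edgeR 4.0.16 in R 4.3.3 (TMM, 1 coefficient per group, quasi-likelihood test, all samples in 1 fit), with Benjamini-Hochberg adjustment within each contrast. CPM are TMM-scaled. Intervals of fold changes are 95% t intervals from that fit and are not adjusted for the number of genes. DESeq2 1.42.0 was an alternative. Single genes were also compared with a two-sided exact permutation test. The code was tested on simulated data. Reads on no gene are left out of library sizes (10.8% to 17.1% of uniquely aligned reads in the 10 livers).

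Named genes were those called, then genes in order of p with a mean of at least 10 reads and groups that did not overlap up to 20 in all, every member of the AhR battery, AhR complex and 30 μg/kg lists, and at most 3 members of each other list at an unadjusted p under 0.05. Livers were assigned to groups by their dose labels alone, whereas the gene lists were chosen with earlier results of these data known. Called means an adjusted p under 0.05. Gene positions are those of GENCODE vM21 and promoters those of RefSeq, both on GRCm38 and later than the annotation that was counted on; 18 of 22 battery genes had a RefSeq promoter and 7 of these held GCGTG. No library repeated another, as all pairs within a group differed by more than the sampling noise (chi-square per degree of freedom of 16.8 to 159). 1 gene of the lists is not reported here by itself. More alternatives are given at the end.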

Additional observations from a re-analysis of the deposited data

Results flagged for a closer look

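Groups of 5 livers were examined for named genes with at least 50 reads over the group, summed lists and library measures. Of 190 such groups, 19 (10.0%) had a liver apart from the others by Dixon's ratio above 0.71. The nominal rate of about 1 in 20 holds for independent groups of normally distributed values. Here the values were not log-transformed and some genes also enter a summed list, so the share cannot be compared with that rate. Dosed mouse 5 was highest for reads on genes (56509899), Saa1 (348 CPM), Saa2 (167 CPM), Serpina3n (1147 CPM), Fgb (8534 CPM), E2f8 (6.70 CPM) and the summed acute phase genes (23875 CPM), and it was lowest for Cyp7b1 (31.1 CPM). Dosed mouse 4 was highest for the share of reads outside genes (17.1%), Prpf4b (144 CPM), Phip (45.2 CPM) and 4930518I15Rik (3.55 CPM). Dosed mouse 3 was highest for Acta1 (4.50 CPM), Tnnt3 (2.86 CPM) and the summed muscle markers (15.8 CPM). Dosed mouse 2 was highest for Cyp1a1 (1325 CPM) and Sult3a2 (4.42 CPM), and without it the log2 fold change of Cyp1a1 was 6.54. Vehicle mouse 1 was lowest for Slc46a3 (43.7 CPM) and highest for Fabp4 (17.1 CPM).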

How the results depend on the processing

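The calls of Cyp1a1, Cyp1a2 and Slc46a3 held under every alternative run (TMM replaced by DESeq2 size factors or by library size, 2 other filters on low counts, only 10 livers in the fit, DESeq2, robust shrinkage, libraries thinned to the smallest, adjustment over all doses, and each mouse left out), and that of Htatip2 under all but the fit of 10 livers (0.92, adjusted p = 0.0811 in edgeR). With each mouse left out in turn, 4 to 6 genes were called and 3 to 5 were DEGs. Without dosed mouse 3 there were 5 DEGs, with Wfdc2 and Gm15375 added. Adjustment over all genes and doses gave 46 genes and 18 DEGs. Between 0.1 and 0.03 μg/kg the count was 1 with only those 10 livers, where Cyp1a2 lost its call. Between 0.3 and 0.1 μg/kg it was 20 with DESeq2 (19 higher, 1 lower) and 6 to 10 with each mouse left out.

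Of 1517 values of single genes under alternatives, 30, from 13 genes that were never called, had the opposite sign. Leave-one-out ranges of the log2 fold change that crossed 0 were -0.11 to 0.14 for Ahr, -0.067 to 0.20 for Arnt, -0.13 to 4.62 for Atp2a1, -0.20 to 0.081 for Cyp2a5, -0.56 to 0.27 for Cyp2s1, -0.0084 to 0.14 for Ep300, -0.54 to 0.35 for Gsta1, -0.051 to 0.046 for Hao1, -0.010 to 0.088 for Ncoa2, -0.14 to 0.058 for Ptges3, -0.15 to 0.72 for Serpina3n and -0.17 to 0.16 for Ugt1a6b. With library size alone the values were 0.0099 for Ugt1a6b and 0.018 for Hao1, and thinning gave -0.19 for Ahrr. The causes were not tested. Leaving out mouse 5 of the 0.01 μg/kg group, an alternative chosen after seeing the data, left 4 genes and 3 DEGs. No paired analysis was run, because the methods describe random assignment of mice to groups and the labels carry no replicate numbers. The mouse numbers used here only follow the order of the samples within each dose group. Mice with the same number in different groups are therefore not matched. Genes with few reads, such as Ahrr and Aldh3a1, could not be resolved at this depth.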
